A study of Mus musculus with 2 samples.

Results

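The long noncoding RNA Gm16685 and 5 protein-coding genes, Il1r1, Hp, Casp4, Ptgs2 and Gfpt2, were followed in stromal nuclei of young mouse bone marrow. The 6 genes were taken by name from the 32293 genes of the count table, together with the 15 of 203545 ATAC peaks that lay within 100 kb of Gm16685. They had been chosen on earlier measured values from these nuclei, namely their RNA in reticular nuclei and their presence in the same nuclei as Gm16685, so both are given as description, with no test. The nuclei came from tdTomato+ cells sorted at postnatal day 21 from mice of the genotype Prrx1-cre; R26R(tdTomato/+), from whose femurs the distal growth plate and the proximal end had been cut away. Male and female littermates were pooled, and there was 1 RNA and 1 ATAC library from the same nuclei. Prrx1-cre labels limb mesenchyme and its descendants from before birth, so the sort enriched for a lineage and not for 1 cell type.

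Reticular cells of the marrow express leptin receptor and the chemokine Cxcl12, and they nourish blood stem cells and B-cell precursors through Cxcl12, Kit ligand and interleukin-7. Many stromal cells also sense infection. Interleukin-1 binds its receptor Il1r1, the adaptor Myd88 and the Irak kinases relay the signal, and NF-kB dimers enter the nucleus and switch on cytokines together with inhibitors that shut the signal off again. Haptoglobin (Hp) is an acute-phase protein that binds free haemoglobin, Casp4 is the inflammatory caspase that senses bacterial lipopolysaccharide inside the cell, Ptgs2 is the inducible cyclooxygenase of prostaglandin synthesis, and Gfpt2 feeds the hexosamine pathway that supplies sugars for glycoproteins and hyaluronan.

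Of 728634 barcodes, 4663 had at least 500 UMIs (RNA molecules counted) and 1000 ATAC counts, and 69.4% of those were above the limit of 10% mitochondrial UMIs. After removal of 16 likely doublets, 1411 nuclei remained. Of these, 307 were reticular (21.8%, exact 95% interval 19.6 to 24.0), meaning that Lepr, Cxcl12, Kitl and Ebf3 together made up at least 0.4% of their non-mitochondrial UMIs, with at least 4 UMIs. Markers of other types gated 86 other stromal nuclei (50 osteoblast, 9 chondrocyte, 9 tenocyte or fibroblast, 18 mural) and 169 blood nuclei (78 erythroid, 61 granulocyte, 17 macrophage, 13 B lymphoid), while 837 passed no gate. The median depth was 1657 non-mitochondrial UMIs in reticular and 7622.5 in other stromal nuclei. Levels below are UMIs summed over a gate and divided by its non-mitochondrial UMIs (CPM, counts per 1000000), and intervals are exact 95% Poisson or binomial intervals that cover counting error only.

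Gm16685 lies on chromosome 3 of mm10 at chr3:7612705-7690001 on the plus strand, spans 77297 bases with 3 exons and is annotated as an antisense RNA. It runs away from Il7, the gene of the B-cell growth factor interleukin-7, which lies on the minus strand at chr3:7569994-7613760, and the 2 genes overlap by 1056 bases at their starts. Whether the counting used strand is not given in the sources used here, so UMIs from the overlap could not be told apart by gene. One ATAC peak, chr3:7612679-7613618, covered the start of Gm16685 and that of 1 annotated Il7 transcript, and 3 other Il7 transcripts started just beyond its edge. It is called the shared promoter peak here. The remaining annotated Il7 transcript starts further inside the gene, at chr3:7605864. The intronic peak with most counts, printed below, lies upstream of that start. The sequences that follow are from GRCm38.p6, plus strand. They are the central 300 bases of the peak with most counts (in an Il7 intron, chr3:7610047-7610346), of a second intronic Il7 peak (chr3:7583632-7583931) and of an intronic Gm16685 peak (chr3:7649613-7649912), and Gm16685 exon 2 (chr3:7663617-7663768). The peak windows are shown because ATAC results below concern those peaks. The exon lies in no peak and is shown as part of the RNA. Capitals mark letters of the 7 motifs searched on both strands.
Il7 intron, most counts: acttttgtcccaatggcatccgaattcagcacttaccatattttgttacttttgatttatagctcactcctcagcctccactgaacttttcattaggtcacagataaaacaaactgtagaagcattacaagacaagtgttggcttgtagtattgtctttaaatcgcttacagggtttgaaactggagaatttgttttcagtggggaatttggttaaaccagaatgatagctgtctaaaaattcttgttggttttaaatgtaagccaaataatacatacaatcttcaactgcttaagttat
Il7 intron, second peak: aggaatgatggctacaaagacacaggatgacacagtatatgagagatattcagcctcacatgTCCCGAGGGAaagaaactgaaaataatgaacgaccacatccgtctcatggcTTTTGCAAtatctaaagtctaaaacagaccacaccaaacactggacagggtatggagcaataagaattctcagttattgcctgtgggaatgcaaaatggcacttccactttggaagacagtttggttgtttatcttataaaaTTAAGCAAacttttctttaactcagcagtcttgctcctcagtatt
Gm16685 intron: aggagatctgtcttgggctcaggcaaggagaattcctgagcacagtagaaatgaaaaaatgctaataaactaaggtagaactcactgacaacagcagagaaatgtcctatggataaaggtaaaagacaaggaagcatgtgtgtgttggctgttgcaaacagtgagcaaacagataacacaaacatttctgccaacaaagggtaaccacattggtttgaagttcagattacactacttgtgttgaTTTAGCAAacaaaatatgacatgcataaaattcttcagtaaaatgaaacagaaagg
Gm16685 exon 2: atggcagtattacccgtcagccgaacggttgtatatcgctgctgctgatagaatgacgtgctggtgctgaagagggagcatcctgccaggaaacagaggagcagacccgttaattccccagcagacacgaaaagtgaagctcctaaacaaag
The motifs were EBF (TCCC, any 2 bases, GGGA), NF-kB (GGG, any 2 bases, TTTCC), C/EBP (TTGCNNAA), AP-1 (TGANTCA), FOX (TGTTTAC), STAT (TTCNNNGAA) and CRE (TGACGTCA), and no match overlapped a match to another motif in the windows printed. The second Il7 intron peak held 1 EBF match, TCCCGAGGGA, found in 1.5% of the central 300-base windows of all peaks, and 2 C/EBP matches, found in 15% of them. The Gm16685 intron peak held 1 C/EBP match. The peak with most counts held none of the 7. A match is a description of letters and says nothing of binding.

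Gm16685 was high in reticular nuclei and at or below the level of free RNA in the other gates. It had 532 UMIs in reticular nuclei, or 770.1 CPM (706 to 838), against 6.37 CPM (1.74 to 16.3) in osteoblast nuclei, 6.19 CPM (0.157 to 34.5) in chondrocyte nuclei and 0 UMIs in tenocyte or fibroblast and in mural nuclei, where 3 counts would have been 48.8 and 62.0 CPM. Granulocyte nuclei, at 42.9 CPM (8.85 to 125), erythroid, at 13.6 CPM (1.64 to 49.0), macrophage, at 12.9 CPM (0.327 to 72.0), and B lymphoid nuclei, at 38.7 CPM (0.98 to 216), held 3, 2, 1 and 1 UMIs, and free RNA in near-empty barcodes was at 40.3 CPM (37.0 to 43.7). Within the mitochondrial limit, only the reticular one of the 9 gates had an interval wholly above that of free RNA, and nuclei that passed no gate were at 173 CPM (154 to 193). With no limit erythroid nuclei also stood above it, at 129 CPM (94.9 to 171), from 48 UMIs in 7 of 170 nuclei with 18 in 1 of them. On the log2 scale the difference between reticular and other stromal nuclei was 6.98.

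The RNA was uneven among reticular nuclei. At least 1 Gm16685 UMI was found in 100 of 307 reticular nuclei (32.6%, 27.4 to 38.1), against 4 of 86 other stromal nuclei (4.65%, 1.28 to 11.5) that were deeper, and 7 of 169 blood nuclei (4.14%, 1.68 to 8.35). Of the 532 UMIs, 50% lay in only 9 nuclei, and 1 nucleus held 57. For Il1r1, 50% of 312 UMIs lay in 29 nuclei, for Hp 50% of 439 in 23, and for Casp4 50% of 186 in 17.

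Il1r1, the signalling receptor for interleukin-1, was at 452 CPM (403 to 505) in reticular nuclei. It was at 61.9 CPM (29.7 to 114) in chondrocyte, 82.7 CPM (22.5 to 212) in mural and 20.7 CPM (11.02 to 35.4) in osteoblast nuclei, and at 19.6 CPM in free RNA. The reticular interval overlapped none of these. Of reticular nuclei 45.3% (39.6 to 51.0) had an Il1r1 UMI, as did 18.6% (11.02 to 28.4) of other stromal and 5.33% (2.46 to 9.87) of blood nuclei.

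Hp was high in 2 gates. It was at 635 CPM (577 to 698) in reticular nuclei and 629 CPM (457 to 844) in granulocyte nuclei, whose precursors are known to make haptoglobin, and the intervals overlapped. With no mitochondrial limit the reticular gate was higher, at 513 CPM (471 to 557) against 355 CPM (288 to 432). Within the limit mural nuclei, at 103 CPM (33.6 to 241), and osteoblast nuclei, at 27.1 CPM (15.8 to 43.3), were lower, chondrocyte and macrophage nuclei had 0 UMIs, and free RNA was at 25.5 CPM. Casp4 was at 269 CPM (232 to 311) in reticular nuclei, 90.4 CPM (36.3 to 186) in macrophage and 71.5 CPM (23.2 to 167) in granulocyte nuclei, cells known to use this caspase, 11.1 CPM (4.48 to 23.0) in osteoblast nuclei, 0 in chondrocyte nuclei and 7.72 CPM in free RNA. The macrophage and granulocyte values rest on 7 and 5 UMIs, and with no limit granulocyte nuclei were at 174 CPM (128 to 230.4), from 48 UMIs with 14 in 1 nucleus, against 260 CPM (230.2 to 292) in reticular nuclei.

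Neither Ptgs2 nor Gfpt2 was highest in reticular nuclei. Ptgs2 had 6 UMIs in reticular nuclei, 8.69 CPM (3.19 to 18.9), which was below free RNA at 68.6 CPM (64.4 to 73.1). Its highest level was in osteoblast nuclei, at 151 CPM (122 to 185), where 95 UMIs came from 7 of 50 nuclei and 29 from 1 of them. Gfpt2 had 18 UMIs in reticular nuclei, 26.1 CPM (15.4 to 41.2), which was above free RNA at 9.12 CPM (7.62 to 10.8). Among the gates it was highest in chondrocyte nuclei, at 86.6 CPM (47.4 to 145), with 14 UMIs in 5 of 9 nuclei.

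**Figure D1:**
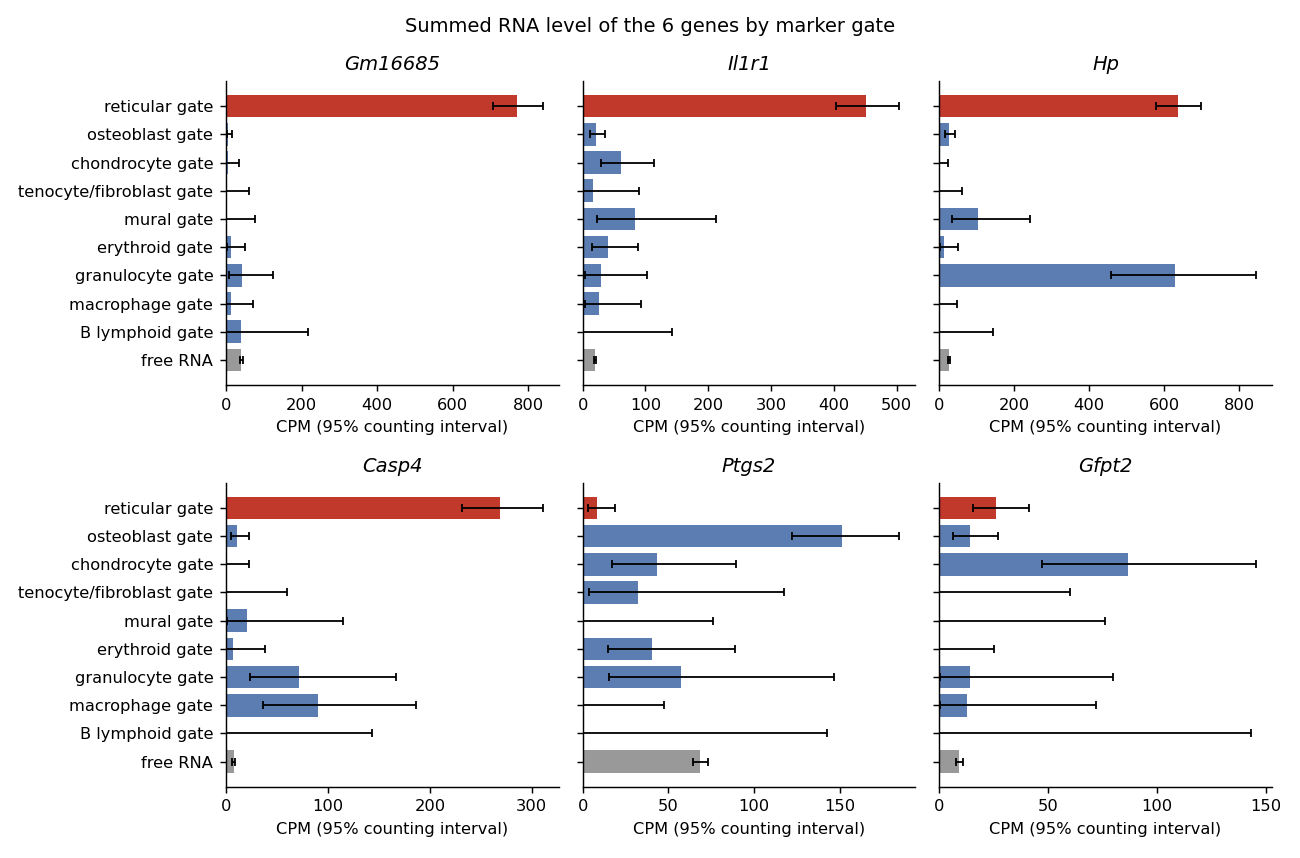
Bars give the summed RNA level of each gene in CPM (x axis, from 0, with its own range for each gene) in the reticular gate (red), the other marker gates (blue) and free RNA (grey), with exact 95% counting intervals, for nuclei within the mitochondrial limit. Gm16685, Il1r1 and Casp4 are highest in the reticular gate, Hp is near 630 CPM in the reticular and granulocyte gates, Ptgs2 is highest in the osteoblast gate at 151 CPM and Gfpt2 in the chondrocyte gate at 86.6 CPM.

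With 0.5 counts added to both sides, log2 ratios of reticular over other stromal nuclei were 6.98 for Gm16685, 4.84 for Casp4, 4.67 for Hp, 3.84 for Il1r1, 0.04 for Gfpt2 and -3.63 for Ptgs2. So 4 of the 6 genes were at least 2-fold higher in reticular nuclei, where 29.6% of 7662 genes with at least 20 UMIs were, and nothing is read from this count, since the genes were chosen on these values. Il7 was at 82.5 CPM (62.5 to 107) in reticular and 5.56 CPM (1.805 to 13.0) in other stromal nuclei. With nuclei above the mitochondrial limit added (507 reticular and 458 other stromal), the same 4 genes were at least 2-fold higher (22.2% of 10473 genes), Gfpt2 was lower, at -1.25, and chondrocyte nuclei, then 57, had Gfpt2 at 165 CPM (139 to 195), with a UMI in 73.7% (60.3 to 84.5). In that set Ptgs2 in reticular nuclei came to 48.4 CPM (36.3 to 63.4) from 53 UMIs, 27 of them in 1 nucleus, so its log2 ratio was -0.78. Il1r1 was then at 208 CPM (153 to 276) in mural and 128 CPM (104 to 154) in chondrocyte nuclei, both still below 423 CPM (385 to 464) in reticular nuclei.

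The gate left reticular RNA outside it. Among nuclei that passed no gate, Gm16685 was at 28.1 CPM (17.6 to 42.6) in the 410 with 0 UMIs of the 4 reticular markers, 52.4 CPM (33.9 to 77.4) with 1 UMI, 206 CPM (134 to 301) with 2, 252 CPM (173 to 353) with 3, and 641 CPM (558 to 734) in the 81 nuclei with at least 4 UMIs but under 0.4%. These 81 nuclei were outside the gate and had a median of 2813 UMIs. Il1r1 went from 30.7 CPM (19.7 to 45.7) at 0 marker UMIs through 37.7, 47.5 and 122 CPM to 479 CPM (407 to 559) in the 81 nuclei. Hp reached 187 CPM (143 to 239) and Casp4 163 CPM (122 to 212) there. Ptgs2 showed no such order, at 96.0 CPM (75.5 to 120) with 0 marker UMIs and 121 CPM (86.1 to 164) in the 81 nuclei. Gfpt2 was at 14.1 CPM (7.03 to 25.2) with 0 marker UMIs and 18.9, 15.8 and 7.62 CPM with 1, 2 and 3. In the 81 nuclei Gfpt2 was at 81.3 CPM (53.6 to 118).

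Reticular nuclei with a Gm16685 UMI were then compared with those without one. The 100 positive nuclei had a median of 2 Gm16685 UMIs and of 2200 non-mitochondrial UMIs. The 207 negative nuclei had a median of 1551, so that a nucleus without a UMI need not lack the RNA. The gating markers made up a median of 0.793% and 0.810% of UMIs, while 8 further reticular markers that the gate did not use summed to 3849 CPM (3620 to 4088) in positive and 3227 CPM (3057 to 3404) in negative nuclei, and their part in the results was not tested. The mitochondrial share was 4.89% and 4.81%.

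Of the 5 other genes, Casp4 alone was at least 2-fold higher in positive nuclei. It was at 404 CPM (333 to 487) in positive and 180.2 CPM (142 to 226) in negative nuclei, a log2 ratio of 1.16, and 1.05 without the positive nucleus that held most of its UMIs. Hp was at 834 CPM (729 to 949) against 505 CPM (439 to 578), a log2 ratio of 0.72 with intervals apart, but the ratio was 0.24 (-0.09 to 0.58) with the reticular gate at 0.8% and 0.35 (-0.20 to 0.89) above the mitochondrial limit alone, where the intervals included 0. Il1r1 was at 499 CPM (419 to 590) against 420.5 CPM (360.5 to 488), and these intervals overlapped. Ptgs2, with 2 against 4 UMIs, and Gfpt2, with 7 against 11, stayed under the 20 UMIs required for a ratio, so their co-detection was not measurable at this depth. Among all genes with at least 20 UMIs, 3.68% of 5158 were at least 2-fold higher in positive nuclei and 2.68% at least 2-fold lower, and the genes were picked partly on this comparison. Il7, which starts beside Gm16685, was at 80.1 CPM (50.2 to 121) in positive and 84.1 CPM (58.6 to 117) in negative nuclei, and the intervals overlapped.

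With no mitochondrial limit (163 positive and 344 negative nuclei) Casp4 had a log2 ratio of 1.17 and Hp of 0.62, Il1r1 was at 527 CPM (462 to 599) against 351 CPM (307 to 400), and Ptgs2 passed 2-fold with 41 against 12 UMIs, 27 of the 41 in 1 nucleus, without which its ratio was 0.83. The shares of all 6517 genes past 2-fold were then 3.21% higher and 2.73% lower. The nuclei above the limit taken alone showed Il1r1 at 571 CPM (464 to 695) in positive and 236 CPM (177 to 309) in negative nuclei, a log2 ratio of 1.27, while Casp4 was at 358 CPM (274 to 458) against 201 CPM (146 to 269), at 0.83.

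Of 10 gene lists around the members, that of NF-kB factors and feedback inhibitors held the most genes higher with Gm16685. Of its 17 genes, 14 had at least 20 UMIs, 7 were at least 2-fold higher in positive nuclei (3.68% of all genes were) and 0 lower, and the median log2 ratio was 0.98, against 0.07 over all genes tested. Relb, a subunit of the non-canonical NF-kB pathway, was at 146 CPM (104 to 198) in positive and 48.1 CPM (29.4 to 74.2) in negative nuclei. Tnfaip3, the deubiquitinase A20 that ends NF-kB signalling, was at 87.4 CPM (56.0 to 130) against 33.6 CPM (18.4 to 56.4). Tnip1, which binds A20, was at 142 CPM (101 to 194) against 55.3 CPM (35.0 to 82.9). The other 4 were Birc3, Nfkb1, Nfkbia and Nfkbie, named here after their values were seen. Nfkb1, the p105 and p50 subunit, had the most UMIs, at 958 CPM (845 to 1081) against 452 CPM (389 to 521). Nfkbia, the inhibitor that holds NF-kB in the cytoplasm and is itself an NF-kB target, was at 426 CPM (352 to 511) against 202 CPM (161 to 250).

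Without the positive nucleus richest in the gene concerned, Relb, Tnfaip3 and Tnip1 stayed past 2-fold, at log2 ratios of 1.46, 1.12 and 1.09, whereas Nfkb1, Nfkbia, Nfkbie and Birc3 came to 0.99, 0.92, 0.89 and 0.73. With the reticular gate at 0.8% the Tnfaip3 ratio was 0.017 (-1.51 to 1.40). In the nuclei above the mitochondrial limit, 10 of the list had enough UMIs and 3 passed 2-fold, with Nfkb1 at 634 CPM (521 to 765) against 286 CPM (220 to 365). The share of all genes past 2-fold was not computed for these nuclei, which come from the same library and are no replicate.

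Among cytokines and chemokines of inflamed stroma, 4 of 9 genes with enough UMIs passed 2-fold, all of them upward, and the median was 0.48. Cxcl9 and Cxcl10, chemokines induced by interferon that attract T cells, had the highest ratios, 3.58 and 3.61, but 85 of 90 Cxcl9 UMIs and 42 of 60 Cxcl10 UMIs of positive nuclei lay in 1 nucleus each. Without that nucleus Cxcl9 was at -0.44 and Cxcl10 at 1.93. Ccl2, a chemokine for monocytes, was at 138 CPM (97.9 to 190) against 57.7 CPM (36.9 to 85.8), or 0.83 without its richest nucleus, and Cxcl1, a chemokine for neutrophils named after its value was seen, had 16 against 10 UMIs.

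In the C/EBP and STAT3 list 2 of 11 genes passed 2-fold, with a median of 0.43. Socs3, the inhibitor of gp130 signalling, was at 131 CPM (91.8 to 181) against 62.5 CPM (40.8 to 91.5), Cebpg had 15 against 6 UMIs, and Jak2 had a log2 ratio of 0.69. The list of acute-phase proteins, to which Hp belongs, had 0 of 9 other genes past 2-fold and a median of 0.58, with Serpina3g at 291 CPM (231 to 363) against 183 CPM (144 to 229). Cfb, at 0.77, had 17 against 15 UMIs and C3, at 0.85, had 12 against 10.

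The lists that hold the other members showed little. Of the interleukin-1 family and its signalling, 6 of 19 genes had enough UMIs and 0 passed 2-fold, with a median of -0.18 (Irak1 -0.85, Myd88 0.60, Il1rl2 0.47). Of inflammatory caspases and pyroptosis genes, 0 of 5 passed, with a median of -0.07 (Gbp5 0.96, Gbp2 0.82, Gbp7 -0.44). Prostaglandin genes gave 0 of 5, with a median of -0.04 (Ptgfr 0.60, Ptger4 -0.56, Hpgd -0.43), and hexosamine and hyaluronan genes 0 of 4, with a median of -0.12 (Uap1 0.77, Oga -0.31, Gfpt1 -0.18). The reticular niche genes gave 0 of 14, with a median of 0.06 (Vcam1 0.44, Igf1 0.42, Angpt1 0.37). Early genes known to rise during tissue dissociation gave 0 of 13 higher and 1 lower, Hspa1b, with 2 against 25 UMIs, with Ier3 at 0.82 and Ier2 at -0.78. Over all lists, 13 of 90 genes were at least 2-fold higher, beside 3.68% of all genes, and 1 lower. Without each gene's richest positive nucleus, 5 of the 90 stayed past 2-fold upward, beside 1.69% of all 5158 genes under the same removal.

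**Figure D2:**
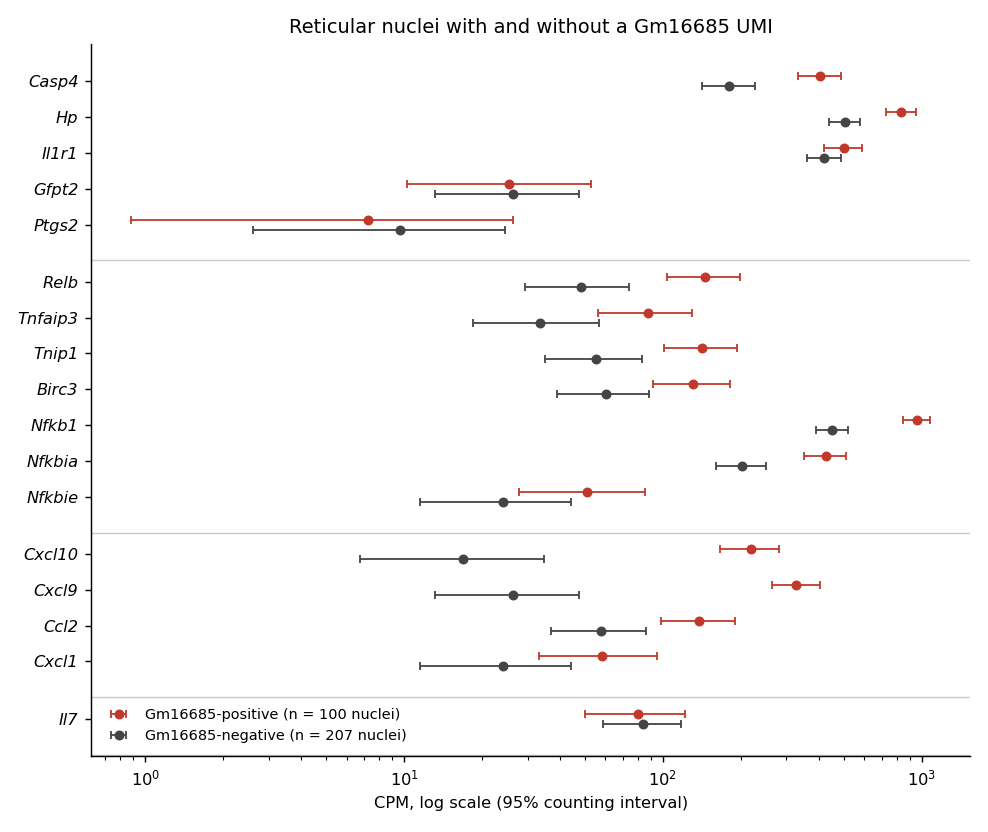
Points give the summed CPM (log scale) of the 5 other genes, the 7 NF-kB genes and 4 cytokine genes past 2-fold, and Il7, in the 100 Gm16685-positive (red) and 207 negative (black) reticular nuclei, with exact 95% counting intervals. Casp4, Nfkb1 and Nfkbia lie apart between the groups, and Il1r1 and Il7 overlap. Cxcl9 and Cxcl10 are far apart, with most of their positive-side UMIs in 1 nucleus each. Without that nucleus the log2 ratio was -0.44 for Cxcl9 and 1.93 for Cxcl10.

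The 10 genes most like Gm16685, by log2 ratio among genes with at least 50 UMIs in reticular nuclei, were Cxcl10, Cxcl9, Pdlim1 (2.07), Fbxo33 (1.90), Gclc (1.61), Relb (1.58), Grk5 (1.57), Fam13a (1.498), Nr4a3 (1.40) and Nrg3 (1.40). Pdlim1 and Nr4a3 had 19 of 37 and 20 of 51 positive-side UMIs in 1 nucleus. Nrg3, a ligand of the ErbB4 receptor, was more widely spread, at 510 CPM (429 to 602) against 192 CPM (152 to 239), with at most 18 of 140 UMIs in 1 nucleus. Above the mitochondrial limit Nrg3 was at 329 CPM (249 to 426) against 80.3 CPM (47.6 to 127), while Gclc, at -0.30, was not higher.

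Grouping the reticular nuclei by their number of Gm16685 UMIs gave higher NF-kB levels from 2 UMIs on. The summed NF-kB list was at 1562 CPM (1444 to 1687) in the 207 nuclei with 0 UMIs, 1786 CPM (1539 to 2061) in 41 nuclei with 1, 2786 CPM (2447 to 3158) in 32 nuclei with 2 to 4 and 4360.5 CPM (3921 to 4836) in 27 nuclei with 5 or more. Nfkb1 was at 452, 411, 1039 and 1567 CPM in the same order. Casp4 was at 180.2 CPM (142 to 226), 277 CPM (186 to 398), 377 CPM (259 to 529) and 595 CPM (440.3 to 787). The intervals of neighbouring groups overlapped, and with no mitochondrial limit Casp4 was at 496 CPM with 2 to 4 UMIs and 486 CPM with 5 or more. Il1r1 was above its level at 0 UMIs only at 5 or more, at 814 CPM (631 to 1033), and Hp at 2 to 4, at 1039 CPM (836 to 1276), and at 5 or more, at 959.6 CPM (759.7 to 1196). Nfkb1 was thus higher from 2 UMIs on and not at 1. Lepr went up slightly along the same groups, at 1689, 1843, 1884 and 1956 CPM with overlapping intervals, and Cxcl12 was lowest at 5 or more, at 2332 CPM (2014 to 2686) against 3073 CPM (2907 to 3246) at 0. Il7 was at 84.1, 105, 79.9 and 48.6 CPM, all intervals overlapping. Median depth went up along the same groups, from 1551 through 1881 and 2204 to 2963 UMIs, and its part in these levels was not tested.

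**Figure D3:**
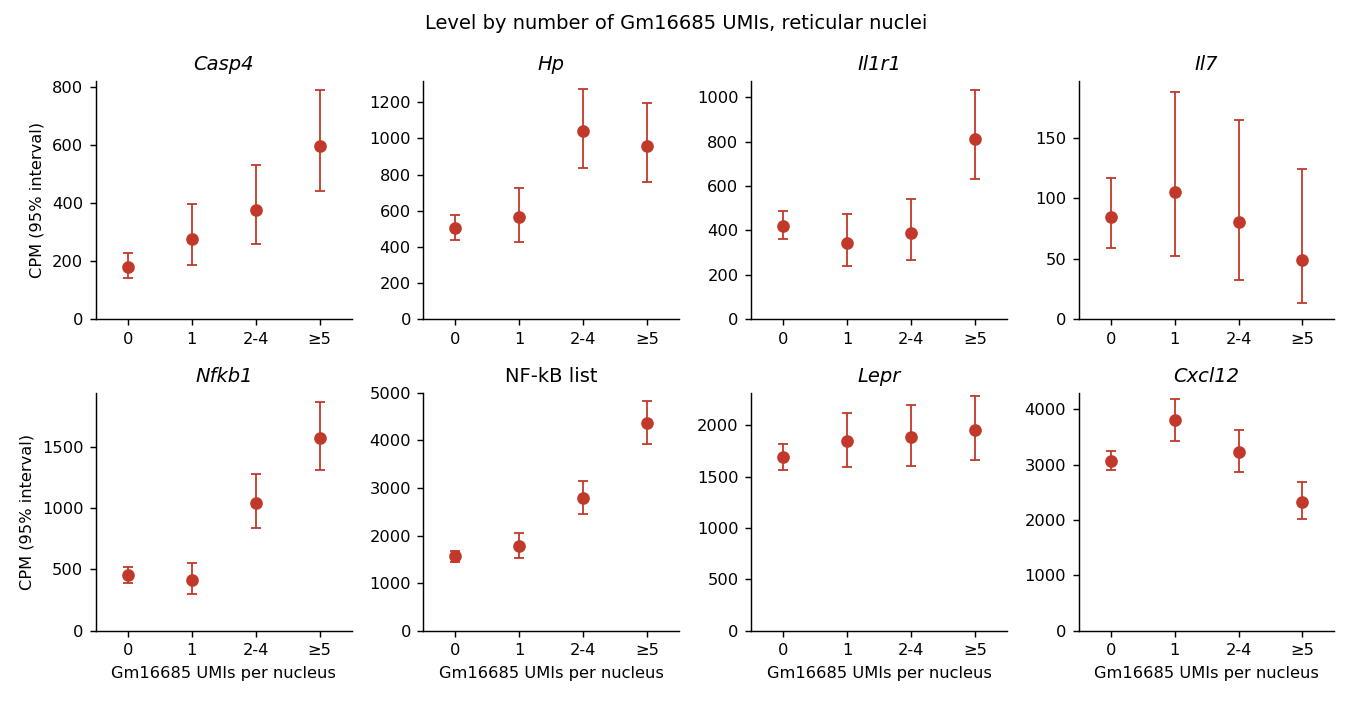
Each panel gives the summed CPM (y axis from 0, own range per panel) of a gene or of the NF-kB list in reticular nuclei with 0, 1, 2 to 4 or at least 5 Gm16685 UMIs (207, 41, 32 and 27 nuclei), with exact 95% counting intervals. Casp4 is higher in each group with more Gm16685, but the intervals of neighbouring groups overlap. Nfkb1 and the NF-kB list stand apart from 2 UMIs on, Lepr goes up slightly with overlapping intervals and Cxcl12 is lowest in the last group.

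To set depth aside, 305 reticular nuclei were thinned to 500 non-mitochondrial UMIs each, with 2 shallower nuclei left out. Gm16685 was then seen in 48 nuclei. Nfkb1 was seen in 39.6% (25.8 to 54.7) of these and in 14.01% (10.0 to 18.9) of the other 257, and Relb in 12.5% (4.73 to 25.2) and 1.17% (0.241 to 3.37). Nfkbia, at 20.8% (10.5 to 35.0) and 8.56% (5.44 to 12.7), and Nrg3, at 14.6% (6.07 to 27.8) and 7.39% (4.51 to 11.3), overlapped. The members overlapped at this depth: Casp4 was seen in 14.6% (6.07 to 27.8) and 8.56% (5.44 to 12.7), Hp in 22.9% (12.03 to 37.3) and 15.6% (11.4 to 20.6), and Il1r1 in 18.8% (8.95 to 32.6) and 17.5% (13.1 to 22.7). Before thinning Casp4 was seen in 43 of 100 positive and 41 of 207 negative nuclei. With no mitochondrial limit, 503 nuclei could be thinned, and Casp4 was seen in 18.4% (10.9 to 28.1) of 87 nuclei with Gm16685 and 7.69% (5.32 to 10.7) of 416 without, and Hp in 28.7% (19.5 to 39.4) and 14.7% (11.4 to 18.4), so that the intervals were apart for both. In that set Relb overlapped, at 6.90% (2.57 to 14.4) and 2.40% (1.16 to 4.38), as did Il1r1, at 20.7% (12.7 to 30.7) and 12.5% (9.48 to 16.1), while Nfkb1 stayed apart, at 34.5% (24.6 to 45.4) and 16.3% (12.9 to 20.3).

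No marker list of another cell type was clearly higher in positive nuclei within the mitochondrial limit. The 8 macrophage markers summed to 113 CPM (76.7 to 160.2) in positive and 195 CPM (155 to 242) in negative nuclei, the 10 granulocyte markers to 284 CPM (225 to 355) and 339 CPM (285 to 400), and the 9 B lymphoid markers to 7.28 and 38.4 CPM, with 2 and 16 UMIs. All were below free RNA, at 533, 1256 and 76.7 CPM. Of the 5 T and NK markers, Cd3e, Trbc2, Nkg7 and Themis had 0 UMIs on both sides, and of 5 endothelial markers Stab2 and Tie1 had 0. Osteoblast and chondrocyte markers were also lower in positive nuclei, at 1234 against 1896 CPM and 1711 against 2511 CPM. Erythroid markers, at 477 and 435 CPM, and mural markers, at 368 and 358 CPM, had overlapping intervals. With no limit the osteoblast markers turned the other way, at 2327 CPM (2188 to 2473) in positive and 2079 CPM (1969 to 2193) in negative nuclei, and their part in the results was not tested.

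Several intronic peaks at the locus were more accessible in reticular than in other stromal nuclei, and the shared promoter, at a log2 ratio of 0.95, came just under 2-fold. Of the 15 peaks within 100 kb, 13 had at least 20 ATAC counts over reticular and other stromal nuclei, and 8 were at least 2-fold higher in reticular nuclei and 0 lower, where 31.7% of 98123 peaks were higher. Reticular nuclei held 1.08e+07 ATAC counts and other stromal nuclei 3.03e+06, so peaks low in reticular nuclei reached 20 counts less easily. The Gm16685 intron peak chr3:7668306-7669214, with 1 against 17 counts, fell under this minimum and is not in the count. The peak with most counts, in an Il7 intron (chr3:7609741-7610652), was at 31.1 ATAC CPM (27.9 to 34.6) in reticular, 4.96 (2.78 to 8.18) in other stromal and 0.654 (0.0792 to 2.36) in blood nuclei. The 3 highest ratios were those of the Gm16685 intron peak chr3:7649321-7650205, at 9.72 (7.95 to 11.8) against 0.661 (0.0801 to 2.39) from 2 counts, of the second Il7 intron peak chr3:7583326-7584237, at 16.4 (14.1 to 19.0) against 1.98 (0.728 to 4.32), and of chr3:7553052-7553922 over the last Zc2hc1a exon, at 3.43 (2.41 to 4.72) against 0.331 (0.00837 to 1.84) from 1 count. The sequences of the first 2 and of the peak with most counts are printed above.

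The shared promoter peak was at 26.5 (23.5 to 29.7) ATAC CPM in reticular, 10.7 (6.32 to 16.9) in osteoblast, 23.5 (12.5 to 40.1) in chondrocyte and 0.981 (0.202 to 2.87) in blood nuclei. In the same chondrocyte nuclei 1 Gm16685 UMI was seen. With no mitochondrial limit chondrocyte nuclei were at 41.9 (35.2 to 49.6), above reticular nuclei at 24.8 (22.6 to 27.1). One intronic Gm16685 peak, chr3:7668306-7669214, went the other way, at 0.0926 (0.00234 to 0.516) in reticular nuclei from 1 count and 6.52 (3.26 to 11.7) in osteoblast nuclei, or 0.215 and 6.61 without the limit. Without the limit 11 of 15 peaks were at least 2-fold higher in reticular nuclei and 1 lower, where 20.7% of 168422 peaks were higher.

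**Figure D4:**
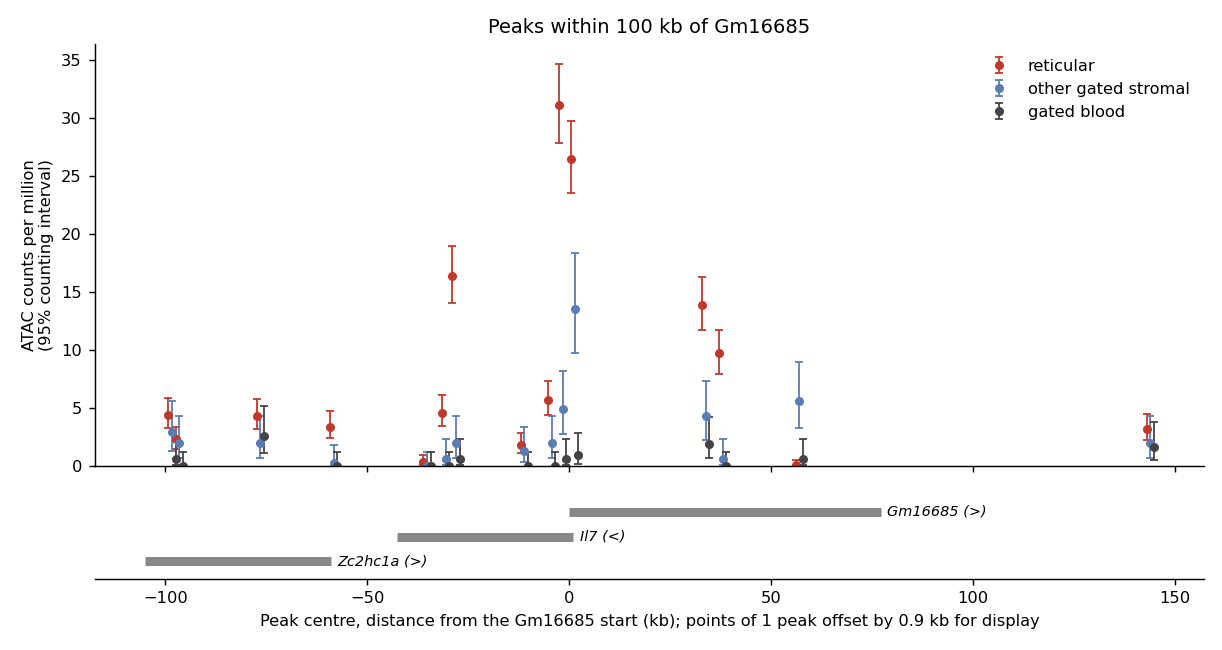
Points give ATAC CPM (y axis from 0, exact 95% counting intervals) of the 15 peaks within 100 kb of Gm16685 in reticular (red), other gated stromal (blue) and gated blood (black) nuclei, by distance from the Gm16685 start in kb, with the spans and directions of Zc2hc1a, Il7 and Gm16685 below. The peak with most counts is at 31.1 in reticular and 4.96 in other stromal nuclei, several other Il7 and Gm16685 intron peaks are also higher in reticular nuclei, and 1 Gm16685 intron peak is seen mainly in other stromal nuclei.

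Within reticular nuclei, peaks at the locus were compared between those with and without Gm16685 RNA. Of 13 peaks with enough counts, 1 was at least 2-fold higher in positive nuclei and 0 lower, beside 7.29% of 78874 peaks. It was an Il7 intron peak, chr3:7600264-7601149, named after its value was seen, with 12 against 8 counts, and it no longer counted at a minimum of 50 counts. The shared promoter peak was at 23.5 (18.8 to 29.0) in positive and 28.0 (24.3 to 32.1) in negative nuclei, and the peak with most counts at 26.0 (21.0 to 31.8) and 33.7 (29.6 to 38.2). With no limit the latter was lower in positive nuclei, at 26.2 (22.3 to 30.6) and 34.3 (31.1 to 37.7), with intervals apart. The Gm16685 intron peak was at 12.7 (9.31 to 17.0) and 8.22 (6.25 to 10.6). With no limit 2 of 13 peaks passed, beside 7.33% of 103195. Above the limit alone 5 passed, but the share of all peaks was not computed there, and nothing is read from that count. Conversely, Gm16685 was at 796 CPM (692 to 912) in the 110 reticular nuclei with a count in the promoter peak and 754 CPM (674 to 841) in the 197 without one.

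The start-site peaks of Hp, Casp4 and, at 1 of its 2 start sites, Il1r1 were higher in reticular than in other stromal nuclei. The Hp start-site peak, on chromosome 8, was at 40.0 (36.3 to 44.0) ATAC CPM in reticular, 4.30 (2.29 to 7.35) in other stromal and 13.1 (9.35 to 17.8) in blood nuclei. Il1r1 has 2 start sites with a peak on chromosome 1. The upstream one, chr1:40224578-40225498, was at 33.6 (30.2 to 37.3) in reticular and 9.26 (6.15 to 13.4) in other stromal nuclei, whereas the downstream one, chr1:40266160-40267066, was at 24.0 (21.1 to 27.1) and 24.1 (18.9 to 30.3). The upstream peak was at 40.1 (33.8 to 47.1) in positive and 30.4 (26.5 to 34.7) in negative nuclei. Ptgs2, at 5.37 (4.08 to 6.94) in reticular and 10.6 (7.24 to 14.9) in other stromal nuclei, and Gfpt2, at 8.89 (7.20 to 10.9) and 8.26 (5.35 to 12.2), were not higher in reticular nuclei. The Hp peak was at 34.3 (28.5 to 40.8) in positive and 42.9 (38.2 to 48.0) in negative nuclei, although Hp RNA was higher in positive nuclei.

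The Casp4 start-site peak on chromosome 9 was at 14.4 (12.2 to 16.8) ATAC CPM in reticular, 1.32 (0.36 to 3.39) in other stromal and 8.18 (5.29 to 12.1) in blood nuclei. With no limit the reticular and blood intervals overlapped, at 13.1 (11.5 to 14.8) and 12.5 (10.9 to 14.3). Between positive and negative nuclei within the limit the intervals of this peak overlapped, at 14.4 (10.7 to 18.8) and 14.3 (11.7 to 17.4). The 250 bases before the start of Casp4 (chr9:5308599-5308848, plus strand) and of Nfkbia (chr12:55492648-55492897, minus strand), from the RefSeq promoter table of GRCm38.p6, are shown because both genes were higher in positive nuclei. The table held 4 of the 6 genes.
Casp4: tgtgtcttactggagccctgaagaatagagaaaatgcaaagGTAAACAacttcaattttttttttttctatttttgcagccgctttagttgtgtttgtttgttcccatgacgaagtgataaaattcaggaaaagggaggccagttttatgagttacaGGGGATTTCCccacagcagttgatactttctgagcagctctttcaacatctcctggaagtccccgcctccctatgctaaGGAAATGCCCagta
Nfkbia: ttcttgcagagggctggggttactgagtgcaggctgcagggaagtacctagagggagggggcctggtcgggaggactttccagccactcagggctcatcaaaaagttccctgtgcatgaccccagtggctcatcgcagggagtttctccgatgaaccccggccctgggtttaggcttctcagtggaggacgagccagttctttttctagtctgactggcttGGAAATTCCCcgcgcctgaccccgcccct
Capitals again mark motif letters. Casp4 held 2 NF-kB matches, GGGGATTTCC and GGAAATGCCC, and 1 FOX match, and Nfkbia held 1 NF-kB match, GGAAATTCCC. At least 1 NF-kB match was found in 1.41% of 32851 promoters of this length, and a FOX match in 3.17%. The promoters of Il1r1 (upstream start), Ptgs2 and Gfpt2 held none for NF-kB and 1 each for C/EBP, found in 9.56% of promoters. Gfpt2 also held 1 FOX match and 1 AP-1 match, the latter found in 6.75% of promoters. The promoter of Nrg3, a gene that was also higher in positive nuclei, held no match to any of the 7 motifs. These letters do not show that a factor was bound.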

How the data were processed

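RNA and ATAC were measured with 10x Multiome in 1 library each from pooled littermates, so nuclei are not replicates and nothing was tested. The authors deposited raw counts over all barcodes (RNA UMIs per gene, ATAC counts per peak), made per the file headers by Cell Ranger ARC 2.0.0. The genome was mm10, to which the authors added transgene sequences. Of the genes, 99.5% had a GENCODE M21 model of the same identifier. The separate peak list was not used. Kept as nuclei were barcodes with 500 or more UMIs, 1000 or more ATAC counts and a mitochondrial share of up to 10%. Scrublet (scanpy 1.11.5) marked 0.350% of them, so the highest scores were removed at 0.8% per 1000 nuclei. Free RNA came from barcodes holding 100 to 400 UMIs and under 500 ATAC counts. Other gates needed 4 UMIs and the larger of 0.4% and 3 times the free RNA share, a threshold set after seeing the data. Reticular nuclei that passed a blood gate (4) were left out. Those that also passed another stromal gate stayed reticular, whereas each other gate took only nuclei that passed no second gate. The effect of this difference on the ratios was not tested. Counts were summed per gate, and ratios had 0.5 counts added and needed 20 counts. The ratio script was tested on simulated data. The members and lists were chosen with earlier results of these data known. Named were the members, up to 3 further genes per list with the largest ratio, the 10 genes with the highest ratio, the 3 peaks with the highest ratio, the promoter peak and the peak with most counts. The sequence of the promoter peak is not reported here.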

Additional observations from a re-analysis of the deposited data

How the results depend on the processing

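Depth limits most values: many rest on few UMIs in 1 library, and intervals cover counting error only. The reticular count of 307 became 507 with no mitochondrial limit, 153 with a gate at 0.8% and 204 above the limit alone. The Gm16685 level of 770.1 CPM became 689 with no limit, 616 and 852 with gates at 0.8% and 0.2%, 883 with free RNA subtracted, 981 without 3 abundant RNAs (Gm42418, Rmrp, Lars2) and 558 above the limit alone. Its ratio to other stromal nuclei stayed within its interval. Of the 5 other genes, 2 instead of 1 passed 2-fold with Gm16685 at a limit of 20%, with no limit and above the limit alone, and 0 with gates at 0.8% and 0.2%. Pathway genes past 2-fold went from 13 to 20 with positive nuclei at 2 UMIs or more, 25 with no minimum, and 5 when thinned to 500 UMIs or without the richest nucleus. Locus peaks past 2-fold in positive nuclei went from 1 to 2 (limit of 20%, no limit, positive at 2 UMIs or no minimum), 3 (gate at 0.8%), 5 (above the limit alone) and 0 (free RNA subtracted, thinned, or a minimum of 50). Beyond the main setting, shares of all genes and peaks were computed only with no limit and, for genes, without the richest nucleus. Nothing is read from the counts under the other settings.

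Cxcl9 changed sign, to a log2 ratio of -2.10 when thinned, -0.37 above the limit alone and -0.44 without 1 nucleus, which held 85 of its UMIs. The first 2 intervals included 0, with upper ends of 1.09 and 3.63, so no direction was measurable there. Ptgs2 changed direction between reticular and other stromal nuclei, to 0.71 (0.20 to 1.17), above the limit alone. With no limit 27 of its 53 reticular UMIs lay in 1 nucleus, whereas within the limit no reticular nucleus held more than 1. The ratio above the limit without that nucleus was not computed, so no direction is read from it. The causes of the other changes were not tested. The nuclei above the limit alone and the removal of 1 nucleus were chosen after seeing the data. No paired analysis was possible because there was 1 library of each kind.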
